A study of Mus musculus with 40 samples.

Results

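The ELOVL enzymes are encoded by 7 mouse genes, Elovl1 to Elovl7, and the acetylation of histone H3 at lysine 27 (H3K27ac) over these genes was examined while white preadipocytes were turned into brown-like adipocytes. The genes were chosen by name, with earlier results of these data known. They are 7 of the 21938 protein-coding genes of the GENCODE M21 annotation on the main chromosomes. For each gene the peaks of H3K27ac were collected from 5 kb before its start to its end (build mm10). The covered length is the number of kb of that window that lie under peaks of a library.

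The libraries are ChIP-seq of H3K27ac, a mark of active promoters and enhancers, in primary cells grown from inguinal white adipose tissue of C57BL/6 mice, which the study's methods give as 8 to 12 weeks old. Wild type (WT) cells were compared with cells of Hmgn1-/- Hmgn2-/- double knockout (DKO) mice, which lack both HMGN nucleosome-binding proteins in all tissues. Both genotypes were taken as proliferated and confluent preadipocytes (day 0), at days 3 and 6 of differentiation, and as brown-like adipocytes (day 9), and both were given insulin, dexamethasone, IBMX, T3 and rosiglitazone, then insulin and T3. Each of the 8 groups held 3 libraries. The study calls them biological replicates, but no label ties a library to an animal or a culture, so a p-value measures the spread between these libraries. Whether cells of a kind were fewer or carried less of the mark cannot be told apart in bulk libraries.

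ELOVL enzymes carry out the first, rate-limiting step of the cycle that lengthens fatty acyl-CoA in the endoplasmic reticulum, the condensation with malonyl-CoA, and HSD17B12, the HACD dehydratases and TECR complete the cycle. The family divides by substrate. ELOVL1, ELOVL3, ELOVL6 and ELOVL7 act on saturated and monounsaturated chains, ELOVL2 and ELOVL5 on polyunsaturated chains, and ELOVL4 makes the very longest ones. Elovl3 is known from brown fat, where cold induces it, and Elovl6, which turns palmitate into stearate, is a lipogenic gene under SREBP-1c.

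The 24 lists held between 47448 and 115923 peaks. WT day 3 replicate 3 was the shallowest, with an estimated background of 4.5 reads per kb, against 8.61 to 12.8 elsewhere. The estimate is the lowest background shared by at least 0.5% of a library's peaks, over the width of its narrowest peak. That width was 440 bp in DKO day 0 replicate 2 and 155 to 165 bp in the others. DKO day 0 replicate 2 had a median peak width of 1076 bp, against 313 to 376 bp in the others, and DKO day 6 replicate 3 had the fewest peaks. Every DKO library of day 6 held fewer peaks (47448 to 74867) than the WT libraries of that day (98503 to 105511). The mean length under all peaks was 30.8 Mb in DKO and 57.5 Mb in WT at that day. Over all genes tested, the median difference DKO minus WT in log2(covered kb + 0.5) was 0.25, -0.17, -0.46 and 0.16 at days 0, 3, 6 and 9, so a member's difference is to be read against that shift. The summed covered length of 9 adipocyte markers was 12.5 to 14.8 kb in WT preadipocytes and 69.0 to 81.1 kb in WT at day 9. Ucp1, the defining brown adipocyte gene, held no called peak in its window, the gene and 5 kb upstream, in any library. The study, which set H3K27ac at known enhancers beside RNA, names Ucp1 and Cidea among the brown-specific genes most raised in DKO. The summed length of 7 immune markers was higher in DKO without overlap at day 0 (27.1 to 55.9 kb, against 21.7 to 24.3 kb) and at day 9 (9.64 to 11.6 kb, against 6.34 to 8.47 kb). At day 0 the adipocyte sum was also higher in DKO without overlap (16.5 to 39.5 kb). So was that of 5 endothelial markers (7.36 to 16.1 kb, against 6.65 to 7.27 kb). The stromal, brown or beige, mesothelial and skeletal muscle sums overlapped at day 0.

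The family fell into 3 patterns. Elovl1, Elovl5 and Elovl6 held peaks in all 24 libraries, as did 50.9% of all genes. Elovl3 held none at days 0 and 3 and appeared later. Elovl4 held a short peak in 8 libraries, Elovl7 in 2 libraries, and Elovl2 in 0 of 24, as did 27.4% of all genes. Peaks of the 24 lists formed 41 merged regions in the 7 windows, of which 6 were called in every library and 19 in only 1 or 2 libraries.

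**Figure D1:**
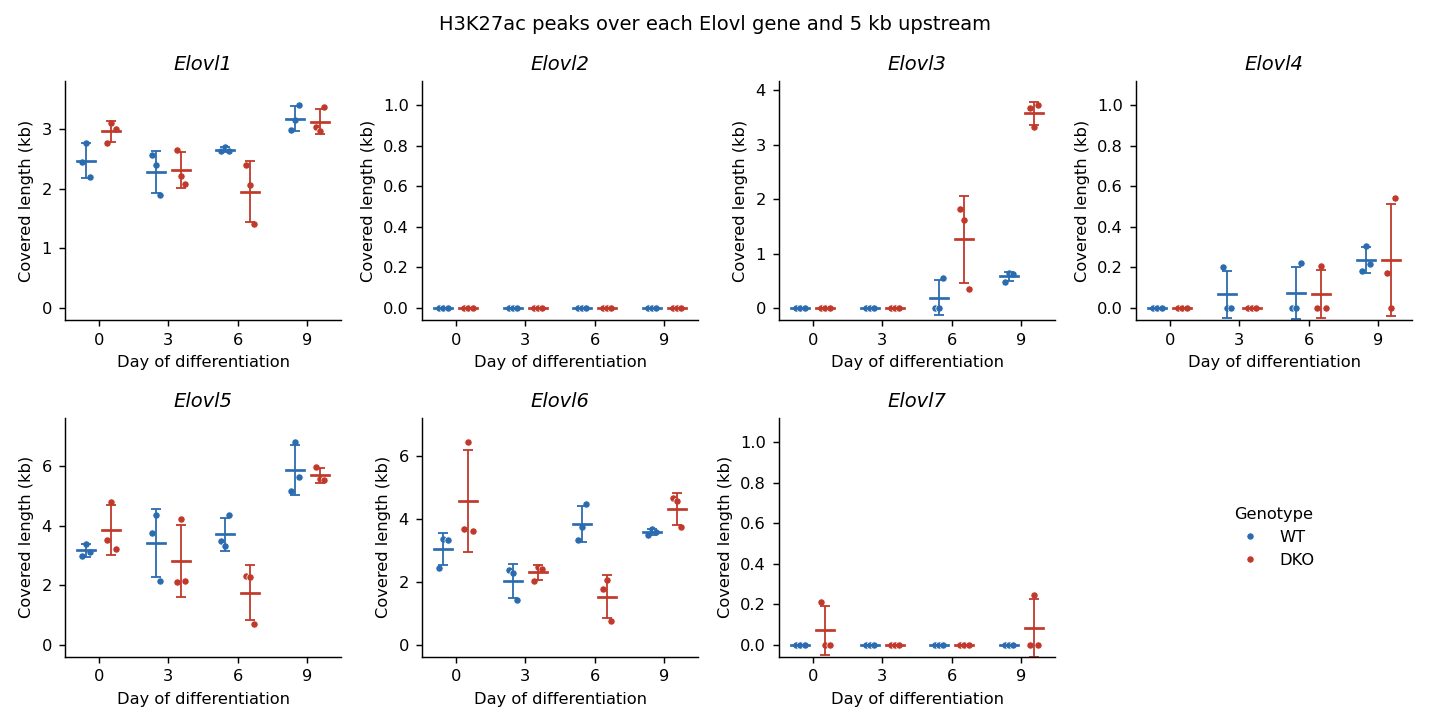
Covered length (kb, y axis) over each Elovl gene by day of differentiation (x axis). Each point is a library (blue WT, red DKO), with the group mean and SD (n = 3). Elovl3 stayed at 0 until day 3 and reached 3.33 to 3.72 kb in the DKO libraries of day 9, against 0.476 to 0.644 kb in WT, while Elovl5 and Elovl6 had their lowest group means in DKO at day 6 (1.75 and 1.53 kb).

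Elovl3 (ENSMUSG00000038754.5, chr19:46131897-46135694, plus strand), whose enzyme lengthens saturated and monounsaturated chains in brown fat and skin, gave the largest genotype difference of the family. None of the 12 libraries of days 0 and 3 held a peak there. At day 6 the WT libraries held 0, 0 and 0.558 kb and the DKO libraries 1.82, 1.61 and 0.343 kb. The groups overlapped at that day, with the DKO library of fewest peaks under the highest WT library. At day 9 the WT libraries held 0.476, 0.644 and 0.615 kb and the DKO libraries 3.68, 3.33 and 3.72 kb. The lowest DKO library of day 9 was well above the highest WT library, and the group means of 0.578 and 3.58 kb differed 6.19-fold.

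In a limma fit over all genes, which used log2(covered kb + 0.5), Elovl3 was higher in DKO by 1.32 ± 0.43 (SE, adjusted p = 0.042, n = 3 per genotype) at day 6. It was higher by 1.92 ± 0.11 at day 9 (adjusted p = 0.000225). At day 6 DKO exceeded WT in 0.064% of the genes tested and fell below WT in 38.7%, and no other of the 9 genes called higher, Tmem45b (1.01) the next among them, had so large a difference. With each library centred on its median over all genes, an alternative chosen after the data were seen, 912 genes were higher and 2157 lower at day 6, in place of 9 and 5440, and Elovl3 stayed higher (1.80, adjusted p = 0.00525). At day 9, 7.99% of the genes tested were higher in DKO and 0.252% lower, and 1 gene of 14656 had a larger difference than Elovl3. With the libraries centred 786 were higher and 263 lower, in place of 1171 and 37, and Elovl3 stayed higher (1.76, adjusted p = 2.38e-05). The call of day 6 was lost in 6 of 12 alternatives, all with the difference above 0. These were without replicate 1 (0.88, adjusted p = 0.246) and without replicate 2 (0.94, adjusted p = 0.222), with a −log10 q of at least 5 (0.87, adjusted p = 0.177), with peaks set to 250 bp either side of their summits (1.56, adjusted p = 0.157), within 1 kb of the start (0.44, adjusted p = 0.185) and with a constant of 0.1 kb (2.6, adjusted p = 0.0578). It held without DKO day 6 replicate 3 (1.79, adjusted p = 0.00471). Day 9 kept its direction under all 11 alternatives that could be fitted. Its call was lost without replicate 2 (2.01, adjusted p = 0.0554) and without replicate 3 (1.92, adjusted p = 0.102), where 2 libraries per genotype remained, and with 250 bp either side of the summits (0.93, adjusted p = 0.243).

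The rise from day 0 to day 9 of Elovl3 passed the test in both genotypes, by 1.11 ± 0.14 (adjusted p = 0.000539) in WT and 3.03 ± 0.21 (adjusted p = 9.7e-07) in DKO on the same log2 scale. Within 1 kb of the start the WT rise was 0.20 and did not pass (adjusted p = 0.47). As day 0 is listed without a peak, these values depend on the constant of 0.5 kb and give no fold. Day 0 also adds no spread to these fits, which lowers their SE. Elovl3 met the filter of these fits through its day 9 libraries alone, so only a rise could be seen. Day 9 was higher than day 0 for 21.5% of the genes in WT and 10.8% in DKO, and lower for 13.6% and 9.84%. With the libraries centred the genotypes were closer, with 2868 genes higher and 2983 lower in WT and 3154 and 3075 in DKO, in place of 3166 and 2007 in WT and 1619 and 1471 in DKO. Elovl3 was 1 of 64 genes, 0.292% of all, with no peak in any library of days 0 and 3 and a peak in all 6 libraries of day 9. The difference between genotypes changed with the day (limma interaction, adjusted p = 0.00312), which 36.7% of the genes tested did. That test pools the spread over all 8 groups. For Elovl3 the groups of days 0 and 3 were at 0 in every library, which lowers the pooled spread.

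The position of the peaks differed too. In WT at day 9 the libraries had in common a peak in the second intron, between 1.44 and 1.93 kb after the start, and another at or just past the end of the gene. In DKO a region before the gene (chr19:46130687-46131516, -1.21 to -0.38 kb from the start) carried a peak in 3 of 3 libraries of day 9, and no other library had one there. Its strongest peaks rose 7.56-, 8.57- and 4.62-fold over background, on 26, 24 and 16 reads at the summit. The region over the first exon (chr19:46131930-46132472, 0.03 to 0.57 kb) was called in 3 of 3 DKO libraries and in 1 of 3 WT libraries of day 9, and in 1 DKO library of day 6. The region from 0.66 to 2.36 kb (chr19:46132560-46134252), which spans exons 2 and 3, was called in all 6 libraries of day 9, and at day 6 in each DKO library and 1 WT library.

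A region from 2.72 to 5.41 kb (chr19:46134612-46137305) lay over the last exon and past the end of the gene, where the antisense gene Pitx3 ends. In WT its peaks began 3.64 kb or more after the start, while in DKO at day 9 they began at 2.75 to 3.25 kb. It was called in all 6 libraries of day 9 and in 3 DKO and 2 WT libraries of day 6. Reads of that region cannot be given to 1 of the overlapping genes. Within 1 kb of the start, where Pitx3 does not reach, the WT libraries of day 9 held 0, 0.213 and 0.033 kb and the DKO libraries 1.40, 1.43 and 1.41 kb. The window also overlaps the gene AC140233.1, whose part in the peaks was not tested. The regions did not pass the exact test of calls over the 4 days, in which 0% of 71228 regions passed and 3759 had an unadjusted p under 0.05. The smallest unadjusted p in the 7 windows was 0.1, that of the region before Elovl3.

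**Figure D2:**
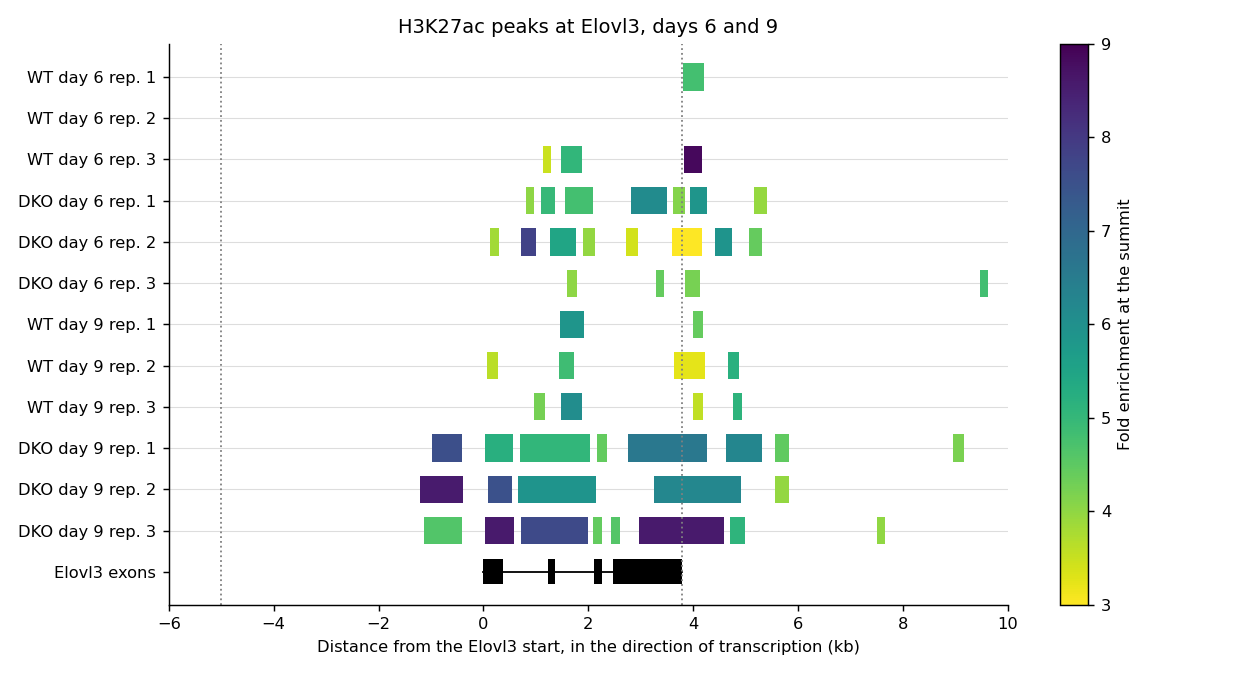
Peaks at Elovl3 in the 12 libraries of days 6 and 9 (rows) by distance from the gene start (x axis, kb), coloured by fold enrichment at the summit. Dotted lines bound the window, black boxes are exons. The 3 DKO libraries of day 9 alone have a peak before the start, at -1.21 to -0.38 kb.

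The peaks of Elovl3 were of middle strength. The strongest peak of each library with its summit inside the window stood at 17, 15 and 19 reads in WT at day 9, over backgrounds of 2.06, 2.29 and 2.29 reads, and at 26, 24 and 26 reads in DKO, over 2.57, 1.92 and 2.14. As a percentile among all peaks of the same library, these peaks ranked 50.9, 35.5 and 57.1 in WT and 70.3, 73.7 and 75.5 in DKO. All 3 DKO libraries thus ranked above the WT libraries, for which the exact test of 3 against 3 gave p = 0.1, the smallest it can give. In the exact permutation test over the 4 days, which also takes peaks that reach into the window from outside, the mean rank was higher by 15.3 (p = 0.015, adjusted p = 0.131) and the covered length by 1.02 kb (p = 0.01, adjusted p = 0.308), neither of which passed. Of all genes tested, 3.43% passed in rank and 0.151% in covered length. With 0 in both genotypes at days 0 and 3, only days 6 and 9 could contribute to that test.

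Marker sums differed between genotypes at the same days. At day 9 the 9 adipocyte markers summed to 110.0 to 116 kb in DKO against 69.0 to 81.1 kb in WT, and the 6 brown or beige markers to 5.64 to 6.56 kb against 3.18 to 4.2 kb. The immune markers, given above, were also higher in DKO at day 9 without overlap. So was the sum of 4 skeletal muscle markers, near 0 in both (0.512 to 0.64 kb, against 0 to 0.302 kb). All of it lay in Acta1 (means of 0.561 kb in DKO and 0.159 kb in WT), as Myod1, Myog and Ckm were at 0. The stromal, endothelial and mesothelial sums overlapped at that day. At day 6 both adipocyte sums reached lower values in DKO but overlapped, with 63.6 to 96.2 kb in DKO against 95.6 to 103 kb in WT for the adipocyte list and 1.97 to 4.49 kb against 4.43 to 5.35 kb for the brown list. The lower adipocyte sum lay mainly in Lpl (19.5 kb in WT, 12.6 kb in DKO) and Pparg (25.7 and 17.4 kb), while Adipoq (5.24 and 5.21 kb), Fabp4 (7.44 and 7.37 kb) and Cebpa (3.67 and 3.63 kb) had nearly equal means and Cidec (6.21 and 7.08 kb) a higher one in DKO. In the brown list, Cidea (0.873 kb in WT, 0.0627 kb in DKO) and Dio2 (0.644 and 0.244 kb) had the lower means in DKO at day 6. Cox7a1 (0.693 and 0.541 kb) and Cox8b (0.698 and 0.652 kb) were closer, and Ppargc1a was at 1.99 kb in both. The part of these markers in the Elovl3 difference was not tested.

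The intronic bases of Elovl3 around the summits shared by both genotypes are shown because this is the part of the gene body that every library of day 9 marked in both genotypes. Of the 10 libraries with a peak in the region, 7 had the summit of their strongest peak between 1582 and 1778 bases after the start, inside intron 2. The 200 bases around the middle one (chr19:46133434-46133633, plus strand, GRCm38.p6) read as follows.
Elovl3 intron 2: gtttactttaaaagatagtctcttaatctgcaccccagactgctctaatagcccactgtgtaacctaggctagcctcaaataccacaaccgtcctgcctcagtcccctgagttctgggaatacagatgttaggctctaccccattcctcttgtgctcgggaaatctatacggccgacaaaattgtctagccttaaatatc
Their GC content was 46% and they hold no CCAAT box (CCAAT), GC box (GGGCGG), E box (CACGTG) or nuclear receptor half-site (AGGTCA) on either strand. These 4 motifs were present in 20.2%, 6.65%, 2.59% and 12.6% of the windows of the same length around the 21749 summits of day 9 on chromosome 19.

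In every library Elovl1 and Elovl5 carried a peak within 1 kb of the gene start. Elovl6 did so in all but WT day 3 replicate 3 and DKO day 6 replicate 3, where the peaks of its first region lay further into the gene. Bases before the start of these genes, from RefSeq (GRCm38.p6), are shown beside those of Elovl2, which was never marked, to let the promoters be compared. RefSeq promoters were matched for 6 members, all but Elovl3. Capitals mark the 4 motifs above, on either strand, and each run is written along the gene's strand, ending at the base before the GENCODE start. RefSeq starts further on by 1 base in Elovl5, 2 in Elovl2 and 31 in Elovl6, and the 250 bases before its start are shown without those, which leaves 219 for Elovl6.
Elovl1 (chr4:118427843-118428092, plus strand): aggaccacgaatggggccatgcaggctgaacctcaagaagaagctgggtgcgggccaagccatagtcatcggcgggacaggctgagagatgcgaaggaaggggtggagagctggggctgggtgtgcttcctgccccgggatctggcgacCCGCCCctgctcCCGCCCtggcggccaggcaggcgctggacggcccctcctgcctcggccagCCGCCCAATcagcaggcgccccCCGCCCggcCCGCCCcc
Elovl5 (chr9:77917115-77917363, plus strand): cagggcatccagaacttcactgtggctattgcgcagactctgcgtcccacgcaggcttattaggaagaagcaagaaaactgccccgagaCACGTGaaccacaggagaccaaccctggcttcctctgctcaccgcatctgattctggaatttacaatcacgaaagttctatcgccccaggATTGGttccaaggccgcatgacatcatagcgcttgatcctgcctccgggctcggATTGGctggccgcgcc
Elovl6 (chr3:129532136-129532354, plus strand): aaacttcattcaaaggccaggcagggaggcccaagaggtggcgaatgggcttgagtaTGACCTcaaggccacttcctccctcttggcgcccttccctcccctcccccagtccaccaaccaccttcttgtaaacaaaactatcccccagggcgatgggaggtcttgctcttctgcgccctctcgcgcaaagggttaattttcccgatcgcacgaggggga
Elovl2 (chr13:41220406-41220653, minus strand): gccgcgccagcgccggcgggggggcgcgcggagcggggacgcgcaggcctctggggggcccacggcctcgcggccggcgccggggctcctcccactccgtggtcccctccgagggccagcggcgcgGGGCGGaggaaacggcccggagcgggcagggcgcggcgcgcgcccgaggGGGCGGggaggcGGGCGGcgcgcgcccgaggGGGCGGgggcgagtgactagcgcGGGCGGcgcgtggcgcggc
The Elovl1 bases shown hold 5 GC boxes and 1 CCAAT box, which share bases in 1 place. Those of Elovl5 hold 2 CCAAT boxes and 1 E box, those of Elovl6 only 1 half-site, and those of Elovl2 5 GC boxes. Of 32851 promoter entries, 33.8% hold a CCAAT box in the 250 bases before the start, 32.7% a GC box, 6.02% an E box and 14% a half-site. A match is a run of letters and not a shown binding site.

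The promoter richest in CpG was that of an unmarked gene. Over the whole 250 bases, the ratio of observed to expected CpG was 0.556 in Elovl1, 0.736 in Elovl5 and 0.561 in Elovl6, and 1.07 in Elovl2, above 97% of all promoters. A peak overlapped these 250 bases in 24 libraries for Elovl1, 22 for Elovl5, 12 for Elovl6, 2 for Elovl4 and 0 for Elovl2 and Elovl7. Elovl4 and Elovl7 had ratios of 0.827 and 0.74. Among all promoters with a ratio of at least 0.6, 18.1% had no peak in any library and 36.1% had one in all 24. Below that ratio, where Elovl1 and Elovl6 lie, 72.6% had no peak in any library.

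Elovl1 (ENSMUSG00000006390.15, chr4:118428093-118432953, plus strand), which lengthens saturated and monounsaturated chains in most tissues, held 1 region shared by all libraries, from -1.05 to 2.58 kb around the start (chr4:118427040-118430669). Its best peak lay between the percentiles of 94.1 and 99.8 of its library outside the DKO libraries of day 6. In those it ranked 89.4, 95.0 and 85.7, against 96.7, 96.4 and 97.8 in the WT libraries of that day. At day 0 the WT libraries held 2.45, 2.76 and 2.19 kb and the DKO libraries 2.76, 3.10 and 3.00 kb. At day 3 they held 2.56, 2.39 and 1.89 kb and 2.65, 2.21 and 2.08 kb. These libraries overlapped at both days.
At day 6 the WT libraries held 2.63, 2.70 and 2.62 kb and the DKO libraries 2.39, 2.052 and 1.40 kb. At day 9 they held 2.97, 3.14 and 3.39 kb and 3.04, 2.97 and 3.36 kb. The difference did not pass the limma test at any day, with -0.39 ± 0.18 (adjusted p = 0.11) at day 6, close to the shift of all genes. From day 0 to day 9 the change was 0.31 ± 0.11 in WT (adjusted p = 0.0564) and 0.07 ± 0.21 in DKO (adjusted p = 0.906).

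Elovl5 (ENSMUSG00000032349.13, chr9:77917364-77984519, plus strand), the elongase of polyunsaturated chains, was marked at its start and in its introns. At day 0 the WT libraries held 2.99, 3.395 and 3.12 kb and the DKO libraries 3.50, 4.80 and 3.22 kb. At day 3 they held 3.76, 4.34 and 2.15 kb and 2.101, 4.22 and 2.16 kb. The genotypes overlapped at both days, and the lowest WT value of day 3 was that of the shallow library.
At day 6 the WT libraries held 3.49, 3.31 and 4.35 kb and the DKO libraries 2.30, 2.27 and 0.69 kb. The limma difference was -0.999 ± 0.32 (adjusted p = 0.0402). At day 9 the WT libraries held 5.17, 6.81 and 5.63 kb and the DKO libraries 5.98, 5.57 and 5.54 kb, which overlapped. From day 0 to day 9 Elovl5 rose by 0.79 ± 0.12 in WT (adjusted p = 0.00112), from 3.17 to 5.87 kb, and passed no test in DKO (0.53 ± 0.23, adjusted p = 0.143), from 3.84 to 5.70 kb. Without DKO day 0 replicate 2, the library of wide peaks, the DKO change was 0.68 and passed (adjusted p = 0.00164), as it did with the libraries centred (0.53, adjusted p = 0.00296). With the 20000 strongest peaks of each library, the WT change turned to -0.49 (adjusted p = 0.585), and it did not pass with 250 bp either side of the summits (0.63, adjusted p = 0.109) or within 1 kb of the start (0.11, adjusted p = 0.6). The genotype difference did not pass the test of a change with the day (interaction, adjusted p = 0.0684), but passed within 1 kb of the start (adjusted p = 0.0456) and without WT day 3 replicate 3, the shallow library (adjusted p = 0.037).

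Elovl5 had the most regions of the family. Its window held 19 regions, 3 of them in all libraries, over the start (-0.71 to 1.60 kb), in an intron (36.63 to 38.90 kb) and at the edge 5 kb upstream, where 128 of 3292 bases of a strong region fell inside the window. An intronic region at 12.61 to 13.84 kb (chr9:77929971-77931208) was seen in every library of days 0 and 9, in 4 of day 3 and in 0 of day 6, with equal counts in both genotypes. A short region at 4.16 to 4.49 kb (chr9:77921525-77921852) was called in 3 of 3 DKO libraries of day 9, 0 of 3 WT libraries of that day and 1 WT library of day 6. It did not pass the test of calls over the days (exact p = 0.55).

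Elovl6 (ENSMUSG00000041220.10, chr3:129532355-129638495, plus strand), the elongase of palmitate, was lower in DKO at day 6, and its other days did not pass. At day 0 the WT libraries held 2.44, 3.35 and 3.34 kb and the DKO libraries 3.66, 6.44 and 3.62 kb, of which the highest was the library of wide peaks. At day 3 they held 2.38, 2.29 and 1.41 kb and 2.03, 2.47 and 2.40 kb, which overlapped. Neither day passed (0.48 ± 0.27, adjusted p = 0.497 and 0.17 ± 0.19, adjusted p = 0.765).
At day 6 the WT libraries held 3.33, 3.74 and 4.46 kb and the DKO libraries 1.78, 2.06 and 0.746 kb. Elovl6 was lower in DKO by 1.16 (limma, log2 difference -1.16 ± 0.27, adjusted p = 0.0148). At day 9 the WT libraries held 3.49, 3.69 and 3.60 kb and the DKO libraries 4.66, 4.56 and 3.74 kb. The difference of 0.23 ± 0.10 did not pass (adjusted p = 0.191). That the genotype difference changed with the day passed the interaction test (adjusted p = 0.00564), though not within 1 kb of the start (adjusted p = 0.117). No change from day 0 to day 9 passed in either genotype, with 0.22 ± 0.12 in WT and -0.04 ± 0.26 in DKO.

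The calls of Elovl5 and Elovl6 at day 6 fell in a comparison in which 38.7% of all genes were lower in DKO. When each library was centred on its median over all genes, Elovl6 stayed lower (-0.67, adjusted p = 0.0161) and Elovl5 no longer passed (-0.52, adjusted p = 0.0959). Without DKO day 6 replicate 3, the library of fewest peaks, both passed (-0.59, adjusted p = 0.00722 for Elovl5 and -0.84, adjusted p = 0.00214 for Elovl6). Both were lost without replicate 1 (adjusted p = 0.101 and 0.0738) and without replicate 2 (adjusted p = 0.0818 and 0.0504). The summed length of 8 preadipocyte and stromal markers at day 6 was 49.2 to 51.6 kb in the WT libraries against 12.7 to 20.4 kb in DKO. The endothelial sum (4.02 to 4.27 kb in WT, 1.17 to 2.38 kb in DKO) was also lower in DKO without overlap. So was the mesothelial sum (0.896 to 1.21 kb in WT, 0.373 to 0.609 kb in DKO), which lay mainly in Krt19 (means of 0.898 and 0.42 kb). All peaks of day 6 covered a mean of 57.5 Mb in WT and 30.8 Mb in DKO. The part of these markers in the differences of Elovl5 and Elovl6 was not tested. When the 20000 strongest peaks of each library were taken, neither Elovl5 (-0.19, adjusted p = 0.817) nor Elovl6 (-0.35, adjusted p = 0.684) passed, and Elovl3 held too few peaks to be tested. Neither passed with 250 bp either side of the summits (-0.64, adjusted p = 0.318 for Elovl5 and -0.65, adjusted p = 0.0867 for Elovl6) or within 1 kb of the start (-0.76, adjusted p = 0.104 and -0.69, adjusted p = 0.186), and Elovl5 did not with a constant of 0.1 kb (-1.2, adjusted p = 0.0657). At days 0 and 3 no member passed the limma test, and 0 had an unadjusted p under 0.05. At day 0, 0.132% of the genes tested were higher in DKO and 0.0139% lower, and at day 3, 0% were higher and 0.0215% lower, with 68 genes higher and 1468 lower at an unadjusted p under 0.05.

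**Figure D3:**
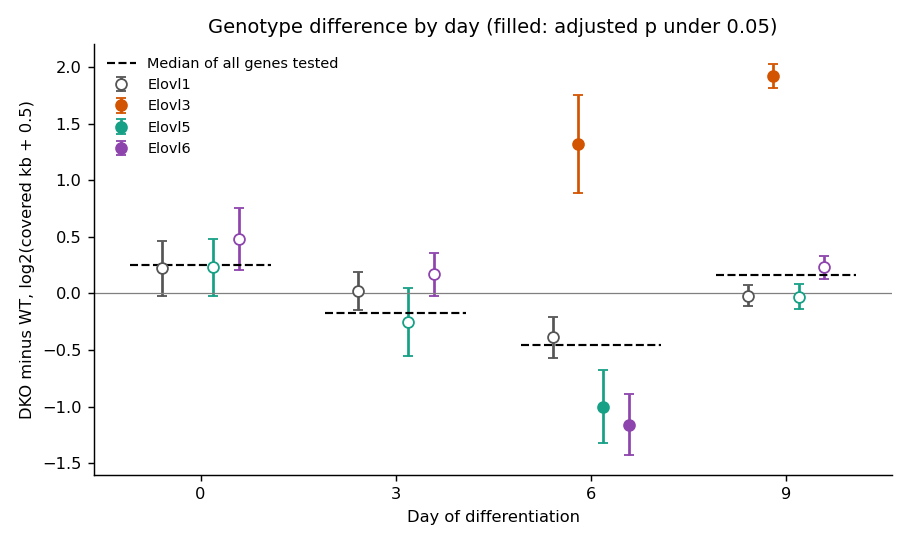
Difference DKO minus WT in log2(covered kb + 0.5) (y axis) by day (x axis) for 4 Elovl genes, with the SE of the limma fit (n = 3 per genotype). Filled points passed at an adjusted p under 0.05, and dashed lines are the median of all genes tested. Elovl3 lies at 1.32 and 1.92 at days 6 and 9, while Elovl5 and Elovl6 lie at -0.999 and -1.16 at day 6, below the median of -0.46.

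The heights of the shared regions were compared with those of all 15375 regions called in every library. At day 6, 4 of the 6 shared regions of the Elovl windows had all DKO folds below all WT folds, as did 51% of all such regions, and 0 were above, against 0.846%. The region at the upstream edge of Elovl5, with 128 of its 3292 bases in the window, was among the 4. At the start of Elovl5 (8.6-fold in WT, 6.1-fold in DKO) and in its shared intronic region (5.73 and 5.98) the folds overlapped. Its lower covered length at day 6 was thus not matched by separate folds there. The start of Elovl1 reached 23.8 ± 2.71-fold in WT and 13.4 ± 3.65-fold in DKO (mean ± SD, n = 3). The first region of Elovl6, from -0.39 to 2.51 kb, reached 9.33- to 10.41-fold in WT and 5.12- to 8.49-fold in DKO. With 3 against 3 libraries no exact test can go below p = 0.1, which was the value for the Elovl1 start and the first Elovl6 region.

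At day 9 the 2 shared regions of Elovl6 ran in opposite directions. The first region (chr3:129531962-129534869), whose summits at day 9 lay 1097 bases or more after the start, reached 7.79 to 8.60-fold in WT and 9.96 to 11.15-fold in DKO, and the one in an intron at 2.68 to 5.10 kb (chr3:129535040-129537456) 10.33 to 12.44-fold in WT and 7.48 to 8.21-fold in DKO. The genotypes did not overlap in either region. DKO lay above WT without overlap in 20.6% of all regions called in every library and below in 9.16%. The intronic region of Elovl6 also lay lower in DKO at day 6 (4.72 ± 0.58 against 11.6 ± 2.11-fold) and at day 0 (7.98 ± 1.41 against 10.2 ± 1.26-fold). The shared intronic region of Elovl5 lay higher in DKO at day 0 (7.04 against 4.71-fold) and lower at day 3 (4.45 against 7.46-fold). Its upstream edge region was also lower at day 3 (10.5 against 16.8-fold). Of all regions called in every library, 10.1% lay below and 11.9% above without overlap at day 0. At day 3 these shares were 27.8% and 3.45%.

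**Figure D4:**
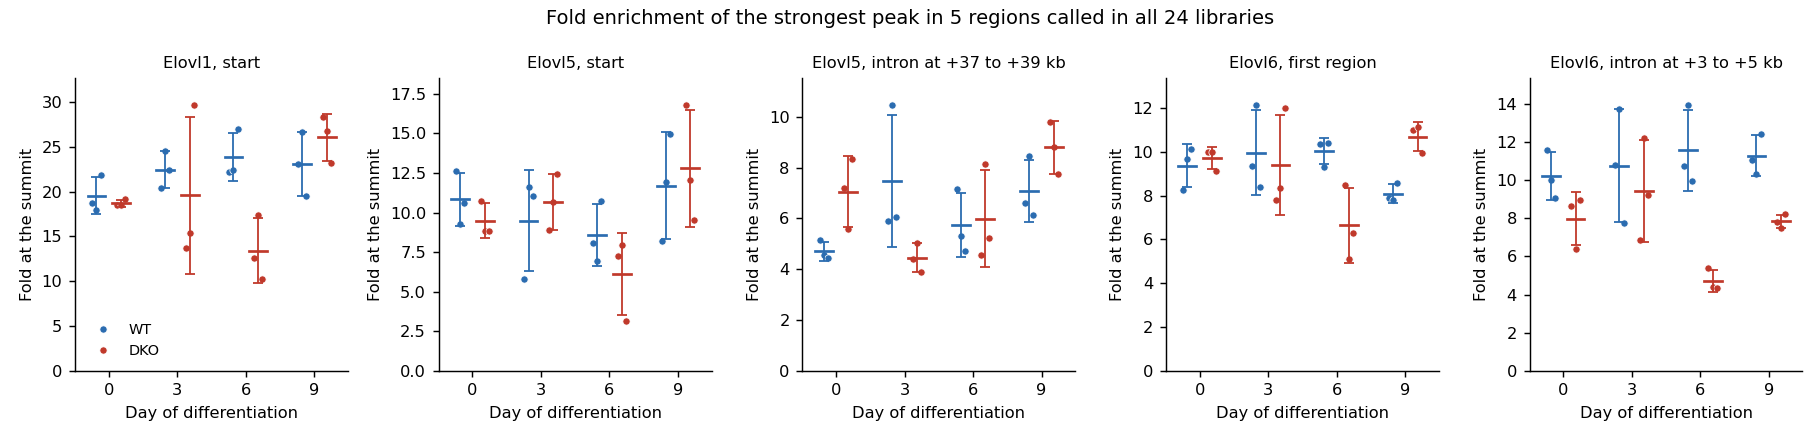
Fold enrichment (y axis) of the strongest peak in 5 regions that were called in all 24 libraries, by day (x axis), with the mean and SD of 3 libraries (blue WT, red DKO). The Elovl6 intron lies lower in DKO at days 0, 6 and 9, and the first Elovl6 region, from -0.39 to 2.51 kb, lies higher in DKO at day 9. The Elovl5 intron lies higher in DKO at day 0 and lower at day 3.

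Elovl4, Elovl7 and Elovl2 were near or at 0. Elovl4 (ENSMUSG00000032262.13, chr9:83778692-83806277, minus strand), which makes the very longest chains of retina and skin, held 0 kb in all 6 libraries of day 0. WT day 3 replicate 1 held 0.2 kb, WT day 6 replicate 3 held 0.222 kb and DKO day 6 replicate 2 held 0.206 kb. The other libraries of days 3 and 6 held 0 kb. The peaks of day 6 stood at 17 and 18 reads (6.12- and 6.36-fold). At day 9 the WT libraries held 0.181, 0.308 and 0.218 kb and the DKO libraries 0.172, 0 and 0.542 kb. The genotypes overlapped, and the difference did not pass (-0.06 ± 0.27, adjusted p = 0.915). The rise from day 0 to day 9 in WT passed (0.55 ± 0.16, adjusted p = 0.0272), on peaks of 10, 14 and 11 reads at the summit. Day 0, at 0 kb, added no spread to that fit. Elovl4 met its filter through the day 9 libraries alone, so only a rise could be seen. The call was lost without replicate 2 (adjusted p = 0.0934), without replicate 3 (adjusted p = 0.0851) and with the libraries centred (adjusted p = 0.0653). The summed length of 3 mesothelial markers was 0.524 to 0.789 kb in WT at day 0 and 1.16 to 2.56 kb in WT at day 9 (1.27 to 2.36 kb in DKO). At day 0 it lay in Krt19 alone, whose WT mean was 0.671 kb then and 1.25 kb at day 9. Msln and Upk3b had WT means of 0.071 and 0.332 kb at day 9. The part of these markers in the rise of Elovl4 was not tested.

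Elovl7 (ENSMUSG00000021696.9, chr13:108214404-108285683, plus strand), an elongase of saturated and monounsaturated chains, held 1 intronic peak in 1 DKO library of day 0 (0.211 kb) and in 1 of day 9 (0.246 kb), and no peak in WT. Elovl2 (ENSMUSG00000021364.16, chr13:41182381-41220405, minus strand), the elongase of long polyunsaturated chains in liver and testis, held no peak in any library. A list holds only peaks past its threshold, so 0 kb means that none was called and not that the mark was absent.

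The other genes of the pathway were given by 5 lists with 34 genes. The lists were chosen with earlier results of these data known, so their counts beside all genes are a description and not independent support. From day 0 to day 9, 18 of the 32 genes tested rose and 1 fell in WT, with a median log2 change of 0.54 against 0.09 over all genes, and 13 rose and 1 fell in DKO, with a median of 0.56 against 0.01. Of all genes tested, 21.5% rose and 13.6% fell in WT and 10.8% rose and 9.84% fell in DKO. With the libraries centred, 18 list genes rose and 5 fell in WT and 19 rose and 2 fell in DKO, beside 2868 and 2983 of 14719 genes in WT and 3154 and 3075 of 14946 in DKO. The list around malonyl-CoA, which holds the genes of its supply and use and Mlycd, the decarboxylase that breaks it down, had the highest medians (0.95 in WT and 1.38 in DKO). All 6 of its genes rose in WT and 5 in DKO, led by Acaca, the acetyl-CoA carboxylase of lipogenesis (3.76 to 18.9 kb in WT, 3.88 to 23.5 kb in DKO) and Acacb, its mitochondrial form (1.37 to 7.53 kb and 1.13 to 11.6 kb). Of the partners in the elongation cycle, Hsd17b12, the ketoacyl-CoA reductase, rose in both (from 3.56 to 7.92 kb in WT, from 5.02 to 11.7 kb in DKO), 3 more rose in WT (Hacd1, Hacd3 and Tecr), and Hacd4 fell in DKO (5.10 to 1.5 kb).
Of the desaturases 4 of 8 rose in each genotype, and of the regulators 4 of 7 rose and 1 fell in WT and 3 rose in DKO. Pparg, the master regulator of adipocytes, went from 2.82 to 13.5 kb in WT and from 5.39 to 25.2 kb in DKO, and Mlxipl, which encodes ChREBP, from 0.393 to 2.81 kb and from 0.48 to 3.31 kb. None of the 5 ceramide synthase genes tested, whose enzymes join acyl-CoA of different lengths to a sphingoid base, passed in either genotype, with medians of -0.21 and -0.07, and with the libraries centred 1 fell in WT.

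Between genotypes, the tested genes of the 5 lists had a median near that of all genes at day 6 and above it at day 9. At days 0 and 3 no list gene passed the limma test. At an unadjusted p under 0.05, 4 of 31 were higher at day 0, as were 1600 of all 14385 genes, and 6 of 30 were lower at day 3, as were 1468 of 13925. At day 6, 12 of 32 were lower and 0 higher in DKO, beside 38.7% and 0.064% of all genes, with a median of -0.40 against -0.46 over all genes. The medians of single lists ran from -0.70 (desaturases) to -0.20 (malonyl-CoA). With the libraries centred 7 were lower and 7 higher, beside 2157 and 912 of 14064 genes. Cers6, which makes ceramides of shorter chains, fell from 12.6 kb in WT to 2.93 kb in DKO, and Scap, the escort of SREBP, from 4.43 to 0.955 kb. At day 9, 11 of 32 were higher and 0 lower, beside 7.99% and 0.252% of all genes, with a median of 0.38 against 0.16. With the libraries centred 8 were higher and 0 lower, beside 786 and 263 of 14656 genes. Scd3, a stearoyl-CoA desaturase, held 0.118 kb in WT and 1.14 kb in DKO (log2 difference 1.42 ± 0.16, adjusted p = 0.00649), and Scd1, the main one of fat, 3.65 and 6.55 kb (0.76 ± 0.17, adjusted p = 0.0315). Fasn, fatty acid synthase, held 5.48 kb in WT and 9.76 kb in DKO (0.78 ± 0.11, adjusted p = 0.00984), and Hsd17b12 and Hacd2 of the elongation cycle rose by 0.53 ± 0.10 and 0.60 ± 0.14.

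The pattern over the 24 libraries was compared between genes by the correlation of log2(covered kb + 0.5), given as a description, since all genes share the libraries and their depth. Elovl3 was most like Stx17 (r = 0.93), Mpzl2 (r = 0.93) and Gm44502 (r = 0.92). Elovl5 was most like Vav2 (r = 0.97), Cxxc5 (r = 0.95) and Myo1h (r = 0.95). Elovl6 had correlations of 0.96 with Camk2d and 0.95 with Plekhm2. Elovl1 was most like Akt1s1 (r = 0.93), Ap1g1 (r = 0.90) and Rnh1 (r = 0.89). Elovl4 was most like Upk3b (r = 0.88), 1 of the 3 mesothelial markers, Cldn18 (r = 0.80) and 4930578G10Rik (r = 0.75). Upk3b held a peak in only 7 of the 24 libraries, and Elovl4 in 8. Among the members, Elovl1, Elovl5 and Elovl6 correlated with each other at 0.82 to 0.85, and Elovl3 with them at 0.18 to 0.32. The number of peaks of a library correlated at 0.64 to 0.74 with Elovl1, Elovl5 and Elovl6 and at 0.29 with Elovl3.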

How the data were processed

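Peak lists of H3K27ac ChIP-seq, 24 in all, were analysed. The authors aligned the reads to mm10 with BWA 07.17 and called peaks per library with MACS2 2.1.1.20160309 against input libraries, per the submitters' processing notes and the study's methods. Which input served which list is not given in the sources used here, and the 16 input libraries were not analysed here. Each deposited list gives for a peak its position, its fold enrichment over background at the summit (a ratio), and the −log10 of its p-value and of its q-value. The authors' lists hold peaks with a −log10 q of at least 2. No read totals were used. Reads at a summit were recovered from the fold and the −log10 p, and came out whole within 0.01 for 100% of peaks. These lists give no counts per gene, so no count model was used.

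The members and the gene lists were chosen with earlier results of these data known. Gene spans are those of GENCODE M21. A window is the gene with 5 kb upstream, its covered length the kb under peaks, and its best rank the percentile, within the library, of its peak with the highest −log10 q. Merged regions join peaks of the 24 lists that overlap by 1 bp. Genotypes were compared at each day, and day 9 with day 0 in each genotype, with limma 3.58.1 in R 4.3.3 on log2(covered kb + 0.5), with a mean trend in the prior variance, over genes with a peak in at least 2 of the 6 libraries. The change of the genotype difference with the day was tested with limma's F test over genes with a peak in at least 3 libraries. An exact two-sided permutation test of genotype within days (160000 relabellings, smallest p 1.25e-05) was run over 15204 genes for covered length and rank, and the same for calls of regions. Benjamini-Hochberg adjustment ran over all features tested, and calls were made at an adjusted p under 0.05. Every Elovl gene is named. Genes of the lists are counted, and at most 4 of those called in a list and comparison are named. Likeness was Pearson's r over the 24 libraries. For Elovl6, 1 gene of this comparison is not reported here. Scripts were tested on simulated data. Alternatives were other peak thresholds, windows, constants and filters, the replicate block, and leaving out libraries.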

Additional observations from a re-analysis of the deposited data

Results flagged for a closer look

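The difference between genotypes in the covered length of Elovl3 changed with the day (limma F test over 24 libraries, adjusted p = 0.00312). The log2 difference DKO minus WT was 1.32 at day 6 and 1.92 at day 9, with no peak in either genotype at days 0 and 3. Those groups at 0 lower the pooled spread of the Elovl3 test, so its p is to be read with care. The same test passed for Elovl6 (adjusted p = 0.00564), whose difference was 0.48, 0.17, -1.16 and 0.23 at days 0, 3, 6 and 9. Of all genes tested, 36.7% passed it. Without replicate 1 neither gene passed (adjusted p = 0.0755 for Elovl3 and 0.0597 for Elovl6), and without replicate 3 Elovl3 passed (0.0037) and Elovl6 did not (0.0752).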

How the results depend on the processing

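Numbers of members past the threshold were within 1.5 times the main count in 94 recomputations and not in 18. With the 20000 strongest peaks Elovl3 and Elovl4 held too few peaks to be tested, and no other member passed. Of 3 members at day 6, 0 passed with 250 bp around summits and with 1 kb around gene starts, 1 with a constant of 0.1 kb, and 0 to 3 without a replicate. Of 1 at day 9, Elovl3, 0 passed with 250 bp around summits, and 0 to 1 without a replicate. In DKO over time 1 became 2 with centred libraries and without DKO day 0 replicate 2, and 1 to 2 without a replicate. Of 2 in the interaction, 0 to 2 passed without a replicate. In the replicate block, day 6 kept 3 members and day 9 kept 1, and of the member calls only that of Elovl4 in WT over time was lost (adjusted p = 0.0575). Correlations of deviations over 12 WT and DKO pairs of equal number ran from -0.18 to 0.26, 4 of them over 0.1, and 3 libraries matched their own number best, so the numbers were not taken to pair libraries. The permutation test cannot pass without a replicate (smallest p 0.00154) or in the block (0.000488).

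Values that changed sign passed no test after the change, and apart from the Elovl5 rise in WT none had passed before. Genotype differences (log2) with the 20000 strongest peaks were -0.39 at day 0 and 0.15 at day 3 for Elovl5, 0.0501 for Elovl1 and -0.22 for Elovl6 at day 9, and changes over time -0.49 in WT and -0.24 in DKO for Elovl5 and -0.49 in WT for Elovl6. With 250 bp around summits they were -0.21 at day 0 and -0.14 at day 3 for Elovl1, -0.11 and 0.20 for Elovl5, -0.0106 and -0.356 for Elovl6, whose change over time in DKO was 0.38. With 1 kb around starts they were -0.0382 (Elovl1) and 0.033 (Elovl5) at day 3 and 0.0586 (Elovl5) at day 9, and over time in DKO -0.0332 (Elovl1), -0.0392 (Elovl5) and 0.116 (Elovl6). Centred, they were -0.0503 for Elovl1 and -0.046 for Elovl5 at day 0, and 0.0968 for Elovl1 and 0.47 for Elovl4 at day 6. With −log10 q of at least 5 Elovl1 was at 0.00246 at day 9.

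Without a replicate, day 3 ran from -0.0838 to 0.0785 for Elovl1 and from -0.0512 to 0.345 for Elovl6, with its lowest values without replicate 3 or WT day 3 replicate 3. Day 6 ran from -0.0162 to 0.0722 for Elovl4, and day 9 from -0.0407 to 0.00701 for Elovl1, -0.356 to 0.259 for Elovl4 and -0.145 to 0.0855 for Elovl5. The changes over time in DKO ran from -0.208 to 0.212 for Elovl6 and from -0.0615 to 0.0347 for Elovl7. Differences over the 4 days were 0.097 kb for Elovl1 with the 20000 strongest peaks. For Elovl6 they were -0.455 kb with 250 bp, -0.0684 (log2) with limma and day as a block, and from -0.227 to 0.368 kb without a replicate. In rank they ran from -5.77 to 3.11 for Elovl4 without a replicate and were 0.152 for Elovl6 with 1 kb around starts. The causes were not tested. Depth is known only relatively, and peaks of 10 to 20 reads lie near the limit of calling.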

Other observations

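A region past the end of Elovl7, outside the window and chosen after its values were seen, split the genotypes. It lies 6.16 kb after the gene's end (chr13:108291840-108294161). It was called in 12 of 12 DKO libraries and in 0 of 12 WT libraries, over all 4 days. Its strongest peak in a library rose 4.97- to 20.89-fold over background (median 14.3), at percentiles of 59.6 to 98.2 among the peaks of its library. The exact test of calls gave p = 1.25e-05, the smallest it can give, and an adjusted p of 0.111 over 71228 regions. Elovl7 itself held 1 weak peak in 2 DKO libraries.

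An intronic region of Elovl6 at 88.92 to 89.52 kb (chr3:129621270-129621870) carried a peak in 3 WT and 0 DKO libraries at day 6, and in 1 WT and 3 DKO libraries at day 9. At day 0 it was called in 1 library of each genotype and at day 3 in 0. Over the 4 days its calls summed to 5 in WT and 4 in DKO (exact p = 1). This pattern was picked after its values were seen and was not tested by day.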
